A study of Rattus norvegicus with 4 samples.

Results

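The cells described here are 3827 fibroblasts of 1 rat peripheral nerve or ganglion library whose counts were led by Myoc, Thbs4, Col9a1 and Steap4. They were chosen from 10542 cell barcodes of the library whose barcodes end in 1 (library 1), in a data set of 41444 barcodes. A barcode needed 500 or more genes with a UMI (unique molecular identifier, 1 per captured transcript), no more than 20% of its UMIs from mitochondrial genes, and at least 10 UMIs per 10000 from Dcn, Lum and Pdgfra together, 3 genes of fibroblasts. Of 7263 such barcodes, those with a summed UMI count of Myoc, Thbs4, Col9a1 and Steap4 of at least 3, and above both other sums, are called Myoc-set cells. The other sums were Ucma, Gdf10, Cilp and Fmod, which led in 1265 Ucma-set cells, and Pi16, Tnfrsf11b, Ptx3 and Pcsk6, which led in 1390 Pi16-set cells. A further 781 barcodes fell in no class. Myoc-set cells thus made up 52.7% of the fibroblasts of library 1 (exact 95% interval 51.5% to 53.8%, counting error only).

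The study sequenced single cells of Sprague Dawley rats in 4 groups, sciatic nerve at 1 day, sciatic nerve at 8 weeks, and dorsal root ganglion at each of those ages, with 1 library in each and the sex of the animals not determined. The protocol in the labels is for primary Schwann cells grown with serum, and whether it was used for the cells sequenced is not stated. The barcode endings 1 to 4 are matched to no group in the labels, so libraries are given by number and tissues and ages are not compared. With 1 library per group there was no replicate and no test; the intervals cover counting error only, and because the cells were selected on the same counts, the differences between classes are descriptions.

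Connective tissue of peripheral nerve is layered. The epineurium is an outer fibrous sheath rich in thick collagen and elastic fibres, the perineurium is a layered epithelium-like barrier around each bundle of axons, and the endoneurium is the loose tissue between the axons and their Schwann cells. Fibroblasts of the endoneurium secrete collagens and basement membrane proteins around nerve fibres, and fibroblasts of the outer layers and of vessel adventitia are known for Pi16, Dpp4 and elastic fibre genes.

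The libraries held between 10087 and 10559 barcodes. Median depth was 6717 UMIs in Myoc-set cells, 13484 in Ucma-set cells and 9396 in Pi16-set cells, so the Myoc-set cells were the shallowest of the 3 classes. To gauge free RNA, 2050 barcodes of library 1 with macrophage genes and below the fibroblast threshold were read in the same way (macrophage-gate cells, median 3963.5 UMIs). In all, 191 barcode sequences occurred in more than 1 library, and 32 Myoc-set cells carried such a sequence. Taken list by list, markers of other cell types were low in Myoc-set cells. For 9 macrophage genes 3 or more UMIs were found in 9.22% of cells, for 7 mural genes in 7.92% and for 8 Schwann genes in 2.95%. The shares were 2.48% for 6 endothelial genes, 1.78% for 5 neuron genes, 0.575% for 4 erythroid genes and 0.157% for 6 T or NK cell genes. A perineurial list of 11 genes, read further below, was an exception. It had 3 or more UMIs in 42.8% of Myoc-set, 64.6% of Ucma-set and 76.4% of Pi16-set cells. The cut of 3 UMIs is not at equal depth. Summed over all these lists except the erythroid and perineurial ones, fewer than 3 UMIs were held by 2374 of the 3827 Myoc-set cells. Summed macrophage genes were at 1082 CPM (the class's UMIs of a gene or list, scaled to the total UMIs of the class) in Myoc-set cells, 537 in Ucma-set cells, 1041 in Pi16-set cells and 51702 in macrophage-gate cells. The part of such transcripts in the differences below was not tested.

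Dcn and Pdgfra are genes of the fibroblast threshold, so their levels here follow from the selection. Dcn was found in every Myoc-set cell and Pdgfra, the receptor that marks many fibroblasts, in 60.2% of them. In macrophage-gate cells, taken from below that threshold, Pdgfra was found in 0.927%. A general fibroblast list shares no gene with the threshold. Its 13 genes found summed to 71589 CPM in Myoc-set cells and 7185 CPM in macrophage-gate cells. The selecting genes were unequally distributed over the Myoc-set cells. Myoc, which encodes the secreted glycoprotein myocilin, had a median of 46 UMIs per cell, with 4 and 116 at the 10th and 90th percentiles and a highest value of 417. Thbs4, encoding the matrix glycoprotein thrombospondin 4, had a median of 12 UMIs and was found in 97.2% of cells. Steap4, a metalloreductase of the cell membrane, had a median of 2 UMIs. Col9a1, a chain of the fibril-associated collagen IX of cartilage, had a median of 0: it was at 0 in 2566 of the 3827 cells and at 3 or more UMIs in 909. All 4 genes were found together in 1076 cells, 3 in 1949, 2 in 595 and 1 in 207.

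In the other classes the medians of all 4 genes were 0. Myoc stood at 7998 CPM in Myoc-set cells against 52.4 in Ucma-set and 86.2 in Pi16-set cells, values that the selection fixes. A UMI of Myoc was seen in 94.8%, 41.7% and 31.7% of these cells, and also in 19.7% of macrophage-gate cells, which are shallower. In CPM, macrophage-gate cells held 52.4 of Myoc, level with Ucma-set cells and below Pi16-set cells. Each gene was also read in cells chosen by the other 3 genes alone. The Ucma-set and Pi16-set cells were chosen again beside them. Myoc was then 70.6-fold and 31.0-fold higher than in these 2 classes, Thbs4 14.4-fold and 26.1-fold, Col9a1 244-fold and 109-fold, and Steap4 40.7-fold and 14.8-fold. With Myoc, Thbs4, Col9a1 or Steap4 left out, 3595, 3526, 3818 and 3798 cells were chosen, near the 3827 of the full rule. The 4 genes were also put together with these data known, so the ratios describe class sums and are no independent support for the set.

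**Figure D1:**
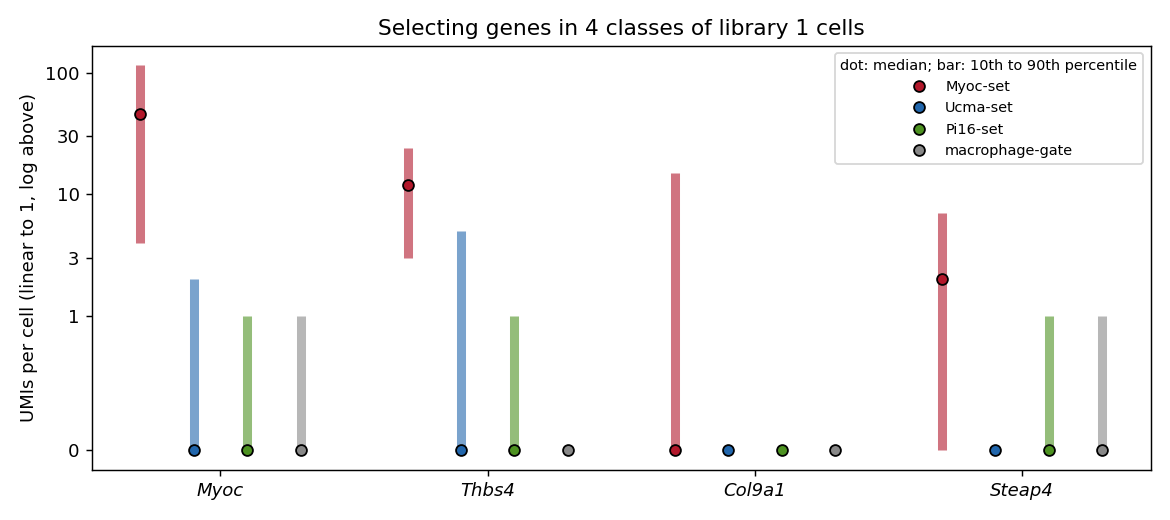
UMIs per cell (y axis, linear to 1 and logarithmic above) of the 4 selecting genes (x axis) in Myoc-set, Ucma-set, Pi16-set and macrophage-gate cells of library 1. Dots are medians and bars run from the 10th to the 90th percentile; the Myoc-set medians are 46, 12, 0 and 2 UMIs, and the medians of the other classes are 0.

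Cells near the threshold differed from the bulk of the class. The 57 cells with a sum of 3 UMIs, just inside, held 2406 CPM of Apod, and the 72 cells with a sum of 2, just outside, held 2136 CPM. Neither group had a UMI of Meox1, which allows up to 6.77 and 6.99 CPM. The 3481 cells with a sum of 10 or more held 61209 CPM of Apod and 58.0 CPM of Meox1. In Apod the cells with a sum of 3 were thus nearer to those just outside, while the 54 cells with a sum of 4 held 10121 CPM. Cd74 did not follow this order, at 1029 CPM in cells with a sum of 2, 507 with 3, 1891 with 4 and 462 with 10 or more.

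Across the genome, 11620 genes had at least 20 UMIs in Myoc-set or Ucma-set cells, and 11600 in Myoc-set or Pi16-set cells. A gene was called when the ratio of CPM was 2-fold or more. Against Ucma-set cells 12.4% of genes were higher and 7.06% lower (1445 and 820 genes). Against Pi16-set cells 9.88% were higher and 9.77% lower (1146 and 1133 genes). With a trimmed-mean scaling these became 1411 higher and 861 lower, so the higher share of the called genes went from 50.3% to 62.1%. The median of all genes went from -0.16 to 0.050 on the log2 scale. Other alternatives moved the share both ways. It was 40.9% with cells thinned to 2000 UMIs and classed again, and 52.7% with a total without mitochondrial, ribosomal and rule genes. Of 11505 genes measured in both contrasts, 818 were higher in both (7.11%) and 444 lower in both (3.86%). The median log2 ratio of all genes was 0.11 against Ucma-set and -0.16 against Pi16-set cells; the ratios below are in this order and are to be read beside these medians.

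Apod, encoding the secreted lipid carrier apolipoprotein D, gave 1513406 UMIs, or 5.65% of all UMIs of Myoc-set cells. The share was 0.021% in Ucma-set and 0.046% in Pi16-set cells. Per cell the lowest, median and highest counts were 0, 379 and 2929 in Myoc-set cells, 0, 2 and 138 in Ucma-set cells, and 0, 2 and 614 in Pi16-set cells. The ranges overlapped, yet the 10th percentile of Myoc-set cells (14.6 UMIs) lay above the 90th percentile of either other class (5 and 4 UMIs). The log2 ratios were 8.07 (interval 8.03 to 8.12) and 6.94 (6.90 to 6.97). Thinned to 2000 UMIs per cell, 94.3% of Myoc-set, 32.1% of Ucma-set, 32.1% of Pi16-set and 47.5% of macrophage-gate cells held a UMI of Apod (unthinned 98.7%, 90.5%, 82.5% and 70.6%), so at equal depth the shares of the other fibroblast classes lay below that of macrophage-gate cells. In CPM, macrophage-gate cells held 310 of Apod, between the 210 of Ucma-set and the 461 of Pi16-set cells.

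The other genes highest over both classes covered several functions. Aldh1a1, an enzyme that makes retinoic acid, stood at 393 CPM against 2.67 and 4.20 (log2 7.20 and 6.55) and was found in 78.3%, 3.24% and 2.52% of cells. With every cell thinned to 2000 UMIs, which left out 115, 6 and 24 cells of the 3 classes, these shares were 51.2%, 0.635% and 0.586%. The order of the classes was thus the same at equal depth.

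Vtn, encoding the adhesive glycoprotein vitronectin, stood at 246 CPM against 3.02 and 4.94. Reln, encoding the secreted signalling protein reelin, was higher by log2 6.30 and 6.64, and Col26a1, a collagen chain, had 585 UMIs against 2 and 5. These are matrix or secreted proteins. Ramp3, which modifies the calcitonin receptor-like receptor, had log2 ratios of 6.62 and 5.98, with 68.9% of Myoc-set cells positive against 4.19% and 3.67%, and 12.4% of macrophage-gate cells. Cnr1, the cannabinoid receptor of neurons, was found in 27.0% of Myoc-set cells and in under 1% of the others (log2 6.07 and 5.95). In library 4, read by the same rule, Cnr1 was at 2.42 CPM in Myoc-set-rule cells and 5.22 in Pi16-set cells (log2 -1.11, interval -2.49 to 0.61). The potassium channel genes Kcnk2 (5.97 and 6.07) and Kcnmb4 (5.83 and 5.91) and the peptidase gene Enpep (5.55 and 5.58) were higher to a similar degree.

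Transcription factor genes among the highest were Foxs1 (119 CPM against 1.92 and 1.03), Meox1 (53.1 against 0.522 and 0.663) and Etv4 (43.2 against 0.697 and 0.663). Each was detected in a minority of Myoc-set cells: 33.0%, 25.2% and 23.5%. The neighbouring cell cycle inhibitor genes Cdkn2a and Cdkn2b were both higher, by log2 6.50 and 5.70 for Cdkn2a and 6.37 and 6.48 for Cdkn2b, and were found in 22.2% and 26.5% of cells. Among 16 measured genes of a cell cycle list, 1 was higher in both contrasts (against 7.11% of all genes), Ccnd1, the cyclin D1 gene (2.12 and 1.32), and 0 were lower in both (against 3.86%). Against Pi16-set cells 7 of the 16 were lower and the list median was -0.93, beside 9.77% of all genes and a median of -0.16. Top2a, a gene of dividing cells, was found in 0.653% of Myoc-set, 0.711% of Ucma-set and 2.30% of Pi16-set cells. Dnah11, a dynein heavy chain gene, had 1020 UMIs against 2 and 3 (intervals of the log2 ratio 6.50 to 11.41 and 5.88 to 9.71). Megf10 and Myh14 likewise had 5 or fewer UMIs in each of the other classes.

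**Figure D2:**
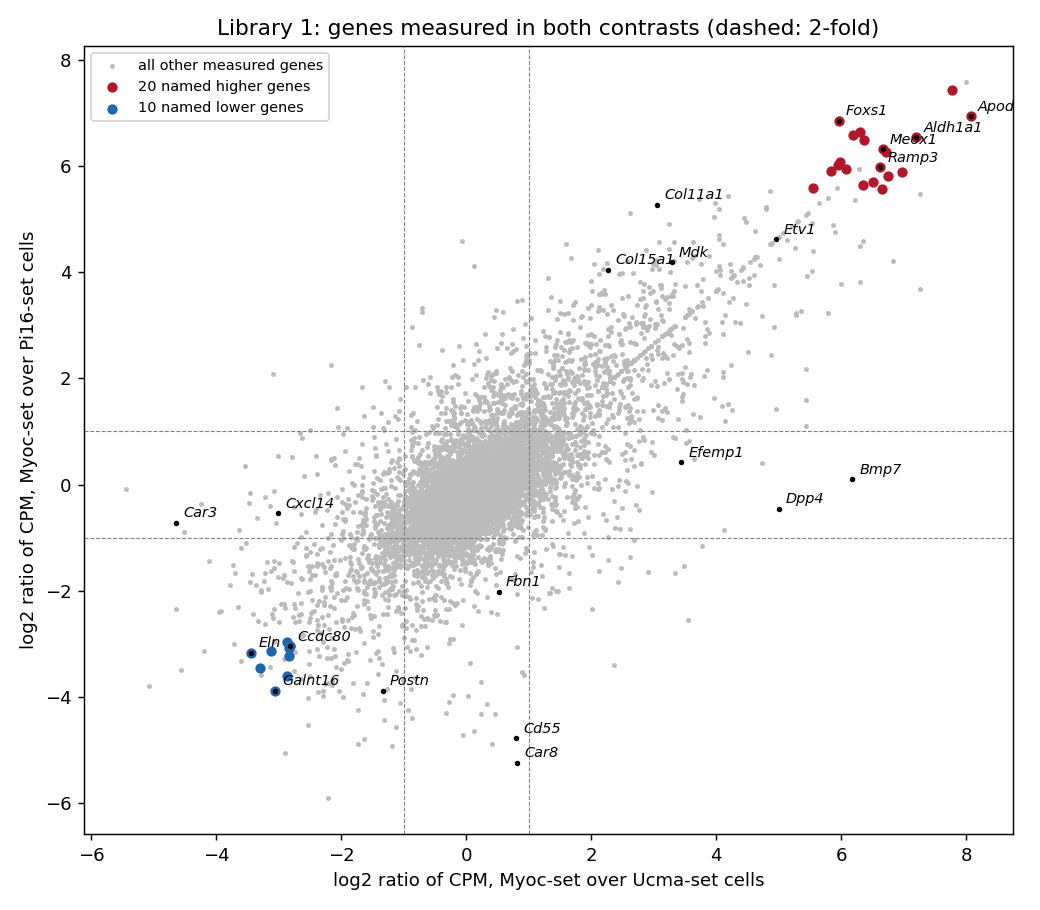
Each point is a gene measured in both contrasts of library 1; the x axis is the log2 ratio of CPM over Ucma-set cells and the y axis that over Pi16-set cells, with dashed lines at 2-fold. Red points are the 20 genes highest over both classes and blue points the 10 lowest; Apod lies at 8.07 and 6.94, and Eln at -3.44 and -3.17.

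The 10 genes lowest against both classes included 4 of matrix or secreted proteins, Eln, Ccdc80, Angpt4 and Mmp27. Eln, encoding tropoelastin, stood at 89.0 CPM against 969 and 799 (log2 -3.44 and -3.17) and was found in 17.9% of Myoc-set cells against 74.2% and 80.4%. Ccdc80, a matrix-associated secreted protein, had a median of 0 UMIs per cell against 38 and 32, and was at 0 in 78.5% of Myoc-set cells against 0.632% and 0.719%. Here and below, unthinned shares of cells and UMIs per cell are not at equal depth, and Myoc-set cells were the shallowest class. Scaled to 10000 UMIs per cell, the medians of Ccdc80 were 0, 30.4 and 35.1. Myoc-set cells held 471 CPM of Ccdc80, and the others 3320 and 3881. Cells with high counts of it occurred in all classes, with highest values of 198, 216 and 179 UMIs. Ptgs2, the inducible cyclooxygenase, stood at 57.7 CPM against 409 and 477. Angpt4, an angiopoietin (log2 -2.87 and -3.62), Mmp27, a matrix metalloproteinase (-3.30 and -3.46), Galnt16, a glycosyltransferase (-3.07 and -3.89), Pcdh7, a protocadherin (-3.12 and -3.13), and the transcription regulators Zfhx4 (-2.87 and -2.97) and Zfpm2 (-2.83 and -3.22) were the others, with the uncharacterised locus AABR07049085.1.

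Each contrast also had its own lowest genes. Against Ucma-set cells the lowest genes included Car3 (log2 -4.64), Smoc1 (-4.32), Spock2 (-4.19) and Arhgef37 (-4.07). Against Pi16-set cells the lowest were Plppr5 (-5.91), Kcnip4 (-5.48), Car8 (-5.24), Ace (-5.07) and Trarg1 (-4.93). Car3 was at 1.34 CPM in Myoc-set, 33.5 in Ucma-set and 2.21 in Pi16-set cells, and Car8 at 1.53, 0.871 and 58.0. Both encode members of the carbonic anhydrase family, and each had a single high class.

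Lists of genes known for the nerve's fibroblast layers differed in direction. Of 10 measured genes of an endoneurial fibroblast list, 9 were higher than in Ucma-set cells and 8 than in Pi16-set cells, with medians of 5.49 and 3.73. For all genes the shares were 12.4% and 9.88%. This list holds genes such as Apod whose high level in these cells was known when it was written. Its transcription factor genes were Etv1 (log2 4.96 and 4.63), Sox9 (5.53 and 4.92) and Osr2 (5.44 and 1.59). Etv1 was found in 62.1% of Myoc-set cells, 5.69% of Ucma-set cells and 20.05% of macrophage-gate cells. Abca9, a lipid transporter gene, had ratios of 2.44 and 2.83. The chemokine gene Cxcl14 was higher in neither contrast, at 48.5 CPM against 393 and 70.5 (-3.02 and -0.54), and Bmp7 was higher against Ucma-set cells alone (6.18 and 0.10).

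Of 14 measured genes of an epineurial and adventitial list, 6 were lower in both contrasts and 1 was higher in both, where 3.86% and 7.11% of all genes were. Against Pi16-set cells, 11 of the 14 were lower and the median was -1.99; against Ucma-set cells the median was -0.091. Dpt, encoding the matrix protein dermatopontin, had a median of 0 UMIs per cell against 21 and 18, and log2 ratios of -2.37 and -2.65. The secreted Wnt-binding proteins Sfrp2 (-3.22 and -2.63) and Sfrp4 (-2.69 and -2.04) were lower in both contrasts. Cd55, a complement regulator of the cell surface, was at 6.73 CPM, near the 3.89 of Ucma-set cells and below the 185 of Pi16-set cells. Dpp4, a cell surface peptidase often used to mark adventitial fibroblasts, was at 162 CPM against 5.05 and 221, so its level lay near that of Pi16-set cells. Bmp7, encoding a bone morphogenetic protein, was at 46.1 CPM against 0.639 and 43.0, likewise near Pi16-set cells.

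**Figure D3:**
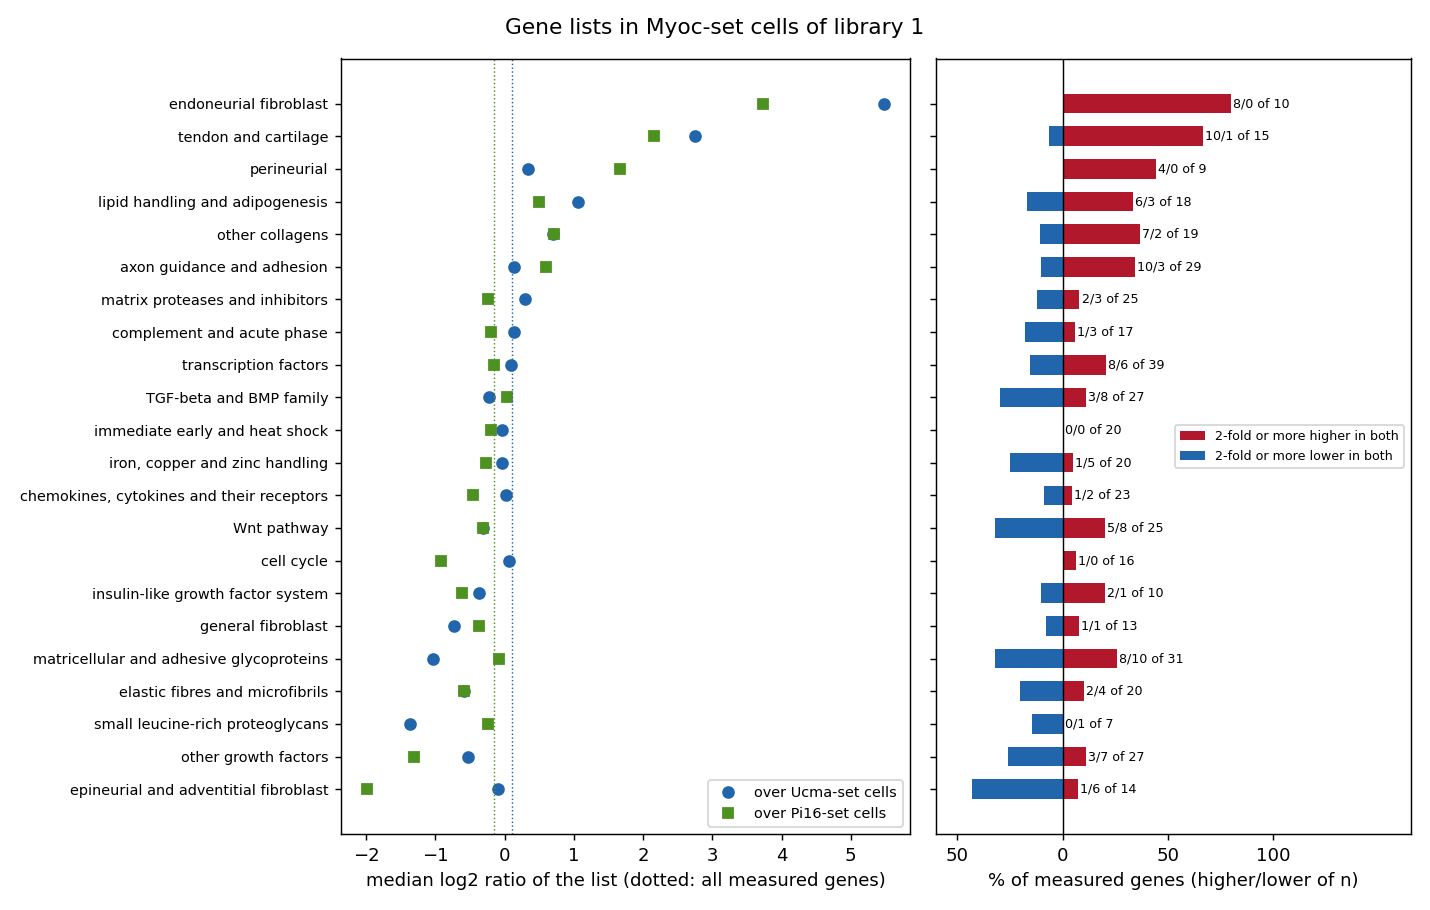
Left, the median log2 ratio of each gene list in Myoc-set cells over Ucma-set cells (circles) and Pi16-set cells (squares) of library 1, with dotted lines at the medians of all measured genes. Right, the percentage of measured list genes 2-fold or more higher (red, to the right) or lower (blue, to the left) in both contrasts; the endoneurial fibroblast list has 8 of 10 higher and the epineurial and adventitial list 6 of 14 lower.

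The collagen genes differed among themselves. The fibril-forming Col1a1, the main collagen of scar and tendon, was at 28549 CPM against 109551 and 36799 (log2 -1.94 and -0.37), and Col1a2 followed it (-1.92 and -0.44). Of 19 other measured collagen genes, 7 were higher in both contrasts and 2 lower, beside 7.11% and 3.86% of all genes, the shares to set beside every count over both contrasts that follows. The basement membrane zone collagens Col15a1 (1723 CPM against 358 and 104) and Col18a1 (3.25 and 1.98 on the log2 scale) were among the higher ones. Per cell, Col15a1 had medians of 11, 4 and 0 UMIs and highest values of 52, 27 and 36, so the classes overlapped. Col11a1, a minor fibrillar collagen of cartilage, stood at 441 CPM against 53.2 and 11.4. The fibril-associated collagens Col12a1 (-2.18 and -1.27) and Col14a1 (-2.81 and -3.09) were the lower pair. Col14a1 was at 0 in 90.02% of Myoc-set cells against 4.66% and 5.18%. Col6a1, of the microfibrillar collagen VI, was higher in both contrasts (1.15 and 1.48).

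A tendon and cartilage list, with 24 genes of which 15 were measured, had 10 genes higher in both contrasts and 1 lower, and medians of 2.75 and 2.15. Beside Sox9, the chondrogenic transcription factor, its partners Sox5 (log2 3.85 and 2.15) and Sox6 (284 UMIs against 1 and 2) were higher. Col9a2, the partner chain of Col9a1 in collagen IX, was at 79.8 CPM against 0.755 and 1.03. Col9a3, the remaining chain, had 88 UMIs in Myoc-set cells against 2 and 1, and was found in 2.14% of cells. Hapln1, a link protein of cartilage proteoglycan, had 138 UMIs against 1 and 1. The 4 genes Sox5, Sox6, Col9a3 and Hapln1 were each found in under 15% of Myoc-set cells.

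Elastic fibre and microfibril genes differed among themselves. Of 20 measured, 4 were lower in both contrasts and 2 higher (3.86% and 7.11% of all genes), and the list medians were -0.58 and -0.58. The lower ones were Eln, the microfibril glycoprotein genes Mfap4 (log2 -3.72 and -3.00) and Mfap5 (-1.52 and -2.51), and Loxl1, an enzyme that cross-links elastin (-2.004 and -3.47). Mfap5 had medians of 2, 35 and 44 UMIs per cell. Fbn1, encoding the microfibril protein fibrillin 1, was at 1370 CPM, near the 957 of Ucma-set cells and below the 5559 of Pi16-set cells. The related Fbn2 was higher in both contrasts (1.03 and 3.15), although the first ratio was at the 2-fold line. Efemp1, encoding fibulin 3, was at 481 CPM against 44.4 and 360.

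Among 31 matricellular and adhesive glycoprotein genes measured in both contrasts, 8 were higher and 10 lower. The thrombospondin family was divided: Thbs1 was higher (log2 3.24 and 3.30), like the selecting gene Thbs4, whereas Thbs2 (-2.50 and -1.27) and Thbs3 (-1.30 and -1.24) were lower. The basement membrane linker gene Nid2 was higher (1.39 and 2.25), while its relative Nid1 passed 2-fold over Ucma-set cells only (2.64 and 0.48). Smoc2, a calcium-binding matrix protein gene (1.71 and 3.39), and Matn2, a matrilin gene (1.30 and 3.89), were also higher in both. The lower genes included the CCN family members Ctgf (138 CPM against 1253 and 541) and Wisp2 (61.2 against 746 and 140), and Postn, the periostin gene (178 against 450 and 2625). Postn was at 0 in 85.8% of Myoc-set cells. Of 7 small leucine-rich proteoglycan genes measured beside the selecting ones, 1 was lower in both contrasts, Ecm2 (-2.38 and -1.49), and none was higher in both. Of 25 protease and inhibitor genes, 2 were higher and 3 lower in both (7.11% and 3.86% of all genes), so the number of higher genes was near the share of all genes. Serpine2, the nexin 1 gene, was among the higher (2.15 and 3.58) and Adamts5, an aggrecanase, among the lower (-1.12 and -3.51).

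Signalling genes also differed by member. Of 27 TGF-beta and BMP family genes measured in both contrasts, 3 were higher and 8 lower in both (7.11% and 3.86% of all genes). The ligand genes Tgfb2 (log2 -2.38 and -3.10), Tgfb3 (-2.50 and -1.56) and Bmp4 (-2.28 and -1.55) and the activin antagonist Fst (-1.82 and -3.75) were lower. Tgfb1 was higher (1.27 and 1.15), and was found in 71.6% of macrophage-gate cells against 28.7% of Myoc-set cells. Bambi, a pseudoreceptor that dampens TGF-beta signals, was also higher (2.30 and 2.01). Of 25 Wnt pathway genes, 5 were higher in both contrasts and 8 lower. Wnt16, a Wnt ligand gene (4.43 and 3.84), and Rspo1, an R-spondin that enhances Wnt signals (1.24 and 1.91), were higher, and Rspo3 (-3.08 and -2.94), Dkk2 (-1.77 and -3.15) and Sfrp1 (-2.99 and -2.58) were lower.

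Of 27 other growth factor genes measured, 3 were higher in both contrasts and 7 lower, with medians of -0.53 and -1.32. Mdk and Ptn, the genes of the heparin-binding neurite growth factors midkine and pleiotrophin, were higher, Mdk at 433 CPM against 44.5 and 23.8 and Ptn at 141 against 4.64 and 18.1. Mdk was found in 79.6% of Myoc-set cells and Ptn in 23.6%. The epithelial growth factors Fgf7 (log2 -2.74 and -2.32), Fgf10 (-1.90 and -3.20) and Hgf (-2.77 and -2.50) and the lymphatic growth factor gene Vegfd (-2.30 and -3.98) were lower. In the insulin-like growth factor system, Igf2 and Igfbp2 were higher and Igfbp3 lower in both contrasts, out of 10 measured genes. Igfbp5, a binding protein gene, was at 1297 CPM against 1633 and 7779.

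Of 23 chemokine, cytokine and receptor genes, 1 was higher in both contrasts, Ccl7, a monocyte chemokine gene (778 CPM against 94.3 and 215), and 2 were lower, Ackr4 and Tnfsf13b. Ccl7 was found in 71.5% of Myoc-set, 33.4% of Ucma-set, 42.3% of Pi16-set and 38.4% of macrophage-gate cells, and, thinned to 2000 UMIs, in 51.3%, 13.7%, 21.4% and 30.3%. Macrophage-gate cells held 422 CPM of Ccl7, more than Ucma-set and Pi16-set cells, and macrophages are known to make this chemokine, so these cells give no background for it. Il33, an alarmin kept in the nucleus, was at 1336 CPM against 117 and 775. Of 17 complement and acute phase genes, Clu, the clusterin gene, was higher in both contrasts (377 CPM against 20.1 and 23.3) and 3 were lower, among them C7 (log2 -2.74 and -2.59) and C4b (-1.32 and -4.44).

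Lipid and metal genes were measured next to Apod and Steap4. Of 18 lipid handling genes, 6 were higher and 3 lower in both contrasts. Apoe, the main lipid carrier of the nervous system, was at 4314 CPM against 516 and 1535, and was found in 77.8% of macrophage-gate cells. The transporter gene Abca6 (log2 3.82 and 2.67) was among the higher ones, and Fabp5 (-1.12 and -2.38) and Angptl4 (-2.08 and -3.44) among the lower. Of 20 iron, copper and zinc genes, Mt3 was higher in both contrasts and 5 were lower. The lower ones included the metallothionein genes Mt1 (-2.01 and -2.18) and Mt2A (-2.15 and -2.90) and the Steap4 relatives Steap1 (-1.40 and -3.27) and Steap2 (-1.73 and -1.82). Steap3 was at -0.26 and 0.11, so none of these 3 relatives was 2-fold higher with Steap4.

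Of 39 measured transcription factor genes, 8 were higher and 6 lower in both contrasts. Beside those above, Tbx18 (log2 3.37 and 1.81), Foxc2 (1.71 and 2.72) and Hoxd9 (3.49 and 2.21) were higher, and the mesenchymal regulators Prrx1 (-1.76 and -1.95) and Osr1 (-1.88 and -1.97) were lower. Osr1 and its relative Osr2 thus pointed in opposite directions. Of 29 axon guidance and adhesion genes, 10 were higher and 3 lower in both. Sema5a (3.04 and 4.22), the ephrin gene Efnb2 (4.51 and 2.50), the netrin receptor gene Unc5c (3.86 and 2.93) and Plxnd1 (2.86 and 3.35) were higher. The semaphorin co-receptor genes were divided, with Nrp2 higher (1.46 and 2.72) and Nrp1 lower (-1.76 and -1.63). None of 20 immediate early and heat shock genes was 2-fold higher or lower in both contrasts.

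Markers of other nerve cells included single genes that moved apart from their lists. Of the 6 measured mural genes, Cspg4, a proteoglycan of pericytes and glial precursors, was at 68.7 CPM against 5.52 and 3.46 and was found in 32.2% of Myoc-set cells, while Abcc9 was lower (log2 -2.74 and -3.16). Summed mural genes stood at 175, 211 and 186 CPM in Myoc-set, Ucma-set and Pi16-set cells. Cdh5, an endothelial cadherin gene, was at 20.7 CPM against 4.59 and 4.42, and summed endothelial genes at 40.2, 22.7 and 19.4. Of 6 measured Schwann genes, 3 were higher and 1 lower in both contrasts, with summed levels of 84.6, 83.3 and 89.5 CPM. Summed neuron genes stood at 38.3, 21.3 and 65.6, T or NK cell genes at 9.34, 0.174 and 0.442 and erythroid genes at 45.7, 248 and 38.3 CPM.

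Not all Myoc-set cells were alike. Myoc was the gene with most UMIs of the 4 in 3361 cells (87.8%), Thbs4 in 347, Col9a1 in 71 and Steap4 in 24, and 24 cells were tied. Thbs4-led cells were the most distinct large group: Apod stood at 8860 CPM against 63454 in the other Myoc-set cells, Dcn at 11891 against 35266 and Meox1 at 9.44 against 59.4. They held more of the transporter genes Slc22a3 (81.4 CPM against 0.642) and Slc6a13 (104 against 1.28) and of the potassium channel gene Kcnj13 (147 against 2.61). Etv1 did not separate them, at 184 CPM on both sides. Thbs4 itself was lower in the Thbs4-led cells, at 1023 CPM against 1971. Myoc was at 250 CPM against 9121, so this grouping marks low Myoc and not high Thbs4.

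Perineurial genes went with the Thbs4-led cells. Of 9 measured genes of a perineurial list, 4 were higher in Myoc-set cells in both contrasts, as were 7.11% of all genes: Itgb4, an integrin chain of epithelia (log2 1.95 and 2.82), Slc2a1, the glucose transporter of barrier cells (1.31 and 1.66), Cldn1, a tight junction gene (1.68 and 2.32), and Casq2 (1.39 and 2.22). In each single contrast 1 gene of the list was lower, and 0 were lower in both. The summed list was at 820 CPM in Myoc-set, 541 in Ucma-set and 906 in Pi16-set cells. Its medians per cell were 3.15, 3.03 and 6.90 per 10000, so the summed list was not higher than in Pi16-set cells. Gene by gene, 6 of the 9 were higher than in Pi16-set cells, where 9.88% of all genes were, and the list median was 1.66. The 1 lower gene of that contrast was Thbd (-2.32). A level of 20 or more per 10000 for the list was reached by 246 Myoc-set cells, 182 of them led by Thbs4 (52.4% of that group) and 61 led by Myoc (1.81%). Itgb4 was at 1721 CPM in Thbs4-led cells and 70.2 in the rest. Without the Thbs4-led cells the ratios were -0.043 and 0.83 for Itgb4, 0.27 and 0.63 for Slc2a1 and -1.03 and -0.20 for Casq2, so that none of these 3 was 2-fold higher, while Cldn1 still was (1.34 and 1.98). The selection thus took in a minority of cells with perineurial transcripts and less Apod and Myoc than the rest. High sums of the list were not particular to this class. The 90th percentile of the list was 11.9 per 10000 in Myoc-set, 10.3 in Ucma-set and 19.0 in Pi16-set cells. Whether the same genes made up the high sums in each class was not tested.

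The smaller groups had their own leading genes. In the 71 Col9a1-led cells, Col9a2 was at 311 CPM against 76.0 in the other Myoc-set cells, and Apod was close to that of the rest, at 70276 against 56314. The class II antigen presentation genes RT1-Bb (516 against 110), RT1-Ba (497 against 111) and Cd74 (1310 against 462) were also higher, but were found in 12.7%, 11.3% and 23.9% of these cells, so few cells carried them. The macrophage gene C1qa was higher there too, at 251 CPM against 101, and was found in 23.9% of these cells against 11.4% of the others; its part in the class II levels was not tested. The 24 Steap4-led cells held 930 CPM of Igfbp3 against 25.6, 1337 of Cxcl14 against 39.8, 685 of the lipoprotein lipase gene Lpl against 31.9 and 819 of Sfrp2 against 61.8. These cells also held less Apod (7493 CPM against 56872), Dcn (11632 against 32445), Aldh1a1 (22.3 against 395) and Etv1 (27.9 against 185). Their low Myoc (100 against 8051) and Thbs4 (27.9 against 1863) follow from the grouping. Among Myoc-led cells the highest ratios over the rest were those of Fsip2, Dclk3, Ret, Igf2 and Bmp7, with Ret, the receptor for glial cell line-derived factors, at 34.7 CPM against 5.59.

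**Figure D4:**
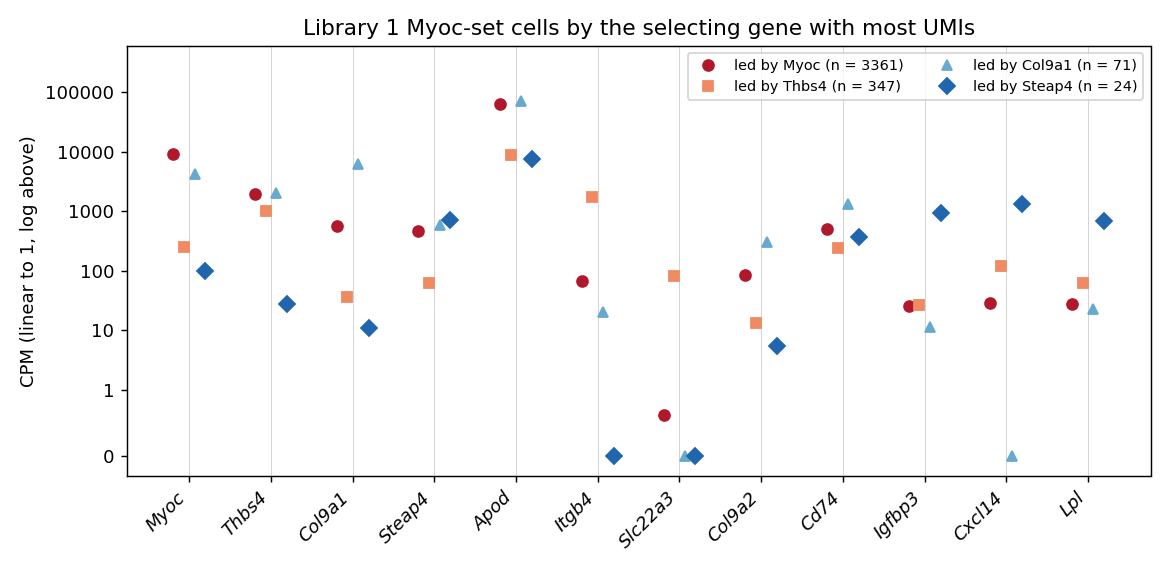
CPM (y axis, linear to 1 and logarithmic above) of selected genes in Myoc-set cells of library 1, grouped by which of the 4 selecting genes had most UMIs in the cell. Itgb4 and Slc22a3 are highest in the 347 Thbs4-led cells, Col9a2 and Cd74 in the 71 Col9a1-led cells, and Igfbp3, Cxcl14 and Lpl in the 24 Steap4-led cells.

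The same rule was then applied to the other libraries, whose cells had no part in the choice of named genes. It found 273 cells in library 2 (26.6% of that library's fibroblasts), 329 in library 3 (16.5%) and 840 in library 4 (60.3%). Pi16-set cells numbered 137, 228 and 53 there, and Ucma-set cells 18, 30 and 6, so that the contrast with Pi16-set cells is the one given. Fibroblasts in no class made up 58.4%, 70.5% and 35.5% in libraries 2 to 4, against 10.8% in library 1. Their median depths were 1308, 3930 and 1415 UMIs in libraries 2 to 4, below the 6362, 5137 and 13034 of the selected cells. The shares of selected cells are thus not at equal depth. With no minimum of UMIs, so that every gene is counted, the CPM of the 20 genes highest over both classes in library 1 was above that of Pi16-set cells for 20 genes in library 2, 19 in library 3 and 19 in library 4. Of all genes with a UMI in either class, 46.1%, 48.9% and 60.5% were above. The exceptions were Aldh1a1, with no UMI in either class of library 3, and Cnr1, lower in library 4. Of the 10 lowest genes, 10, 8 and 9 had a CPM below that of Pi16-set cells, where 53.9%, 51.1% and 39.5% of all genes did. Mmp27 had no UMI in either class of libraries 3 and 4, and Zfhx4 was higher in library 3. This count was chosen after the values were seen and says nothing of the size of the differences.

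Apod stood at 56541, 87055, 29116 and 6220 CPM in the selected cells of libraries 1 to 4. Its log2 ratios over Pi16-set cells were 6.94, 11.20, 9.58 and 8.45 in libraries 1 to 4. Etv1 (4.63, 2.59, 5.13 and 4.48), Ramp3 (5.98, 5.48, 5.94 and 3.59), Foxs1 (6.85, 3.58, 7.02 and 3.54) and Sox9 (4.92, 2.96, 2.64 and 2.34) were higher in all 4 libraries. Eln was lower in all 4 (-3.17, -3.84, -3.50 and -3.47), as were Dpt (-2.65, -3.50, -2.55 and -3.76) and Ccdc80 (-3.04, -4.68, -2.45 and -1.68). These genes kept their direction although the cells came from separate libraries.

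Myoc itself divided the libraries. It gave 216354 UMIs in the fibroblasts of library 1 and 20715 in those of library 2, but 1 UMI in library 3 and 4 UMIs in library 4, over 1990 and 1393 fibroblasts. A UMI of Myoc was thus found in 65.4%, 39.3%, 0.0503% and 0.287% of fibroblasts, whose median depths were 7687, 1688, 4855 and 12121 UMIs. In libraries 3 and 4 the rule therefore rested on Thbs4, Col9a1 and Steap4, with Thbs4 at 731 and 976 CPM in the selected cells against 1851 and 1105 in libraries 1 and 2. Aldh1a1 followed Myoc: 393 CPM in library 1, 608 in library 2, no UMI in library 3, which allows up to 1.57 CPM, and 3 UMIs in library 4. Vtn, by contrast, was present in all 4 libraries, at 246, 182, 58.2 and 22.5 CPM. Cdkn2a was at 42.0, 22.1, 4.72 and 3.51 CPM, whereas Cdkn2b was at 52.7, 120, 55.6 and 39.2.

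**Figure D5:**
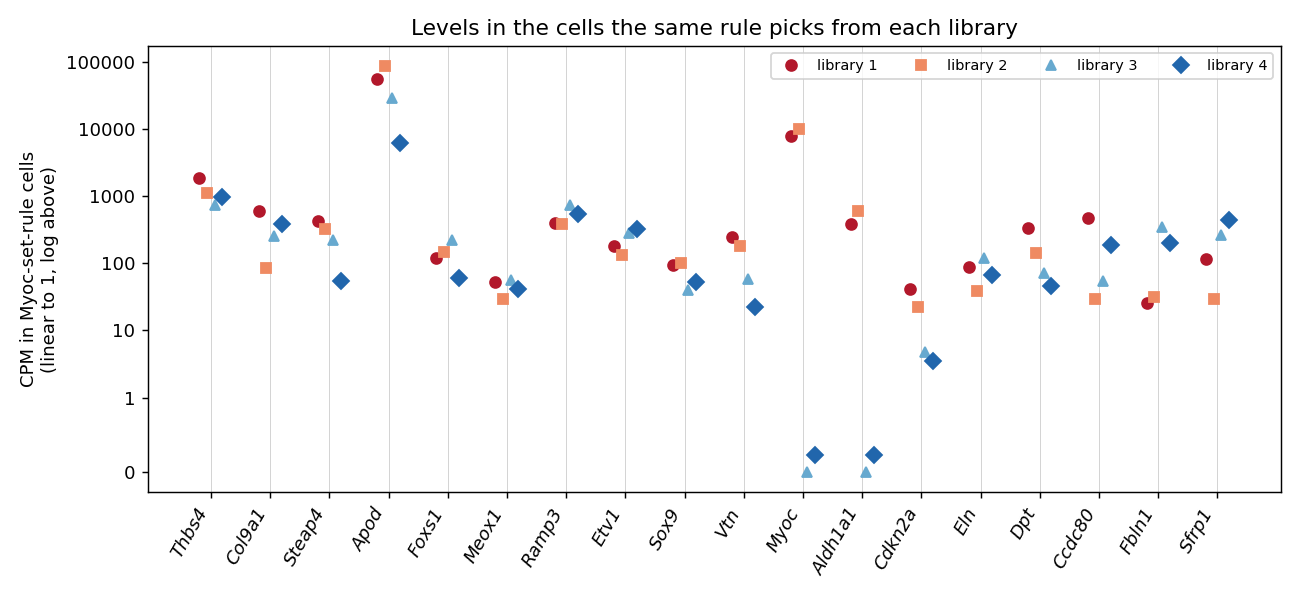
CPM (y axis, linear to 1 and logarithmic above) of selected genes in the cells the rule picks from libraries 1 to 4 (3827, 273, 329 and 840 cells). Apod, Foxs1, Ramp3 and Etv1 are present in every library, whereas Myoc and Aldh1a1 are at or near 0 in libraries 3 and 4.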

How the data were processed

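Single-cell libraries were made with a droplet method that tags the 3' end of transcripts with UMIs. The deposited file holds raw UMI counts per gene and barcode, which the authors made with Cell Ranger 3.1.0 per the file headers; CASAVA 1.8, Seurat and the build Rnor_6.0 are named in the submitters' processing notes, without a stated role. The matrix holds 25399 genes and 41444 barcodes; counts of repeated symbols were summed. Which filters preceded deposition is not given in the sources used here.

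The members, the gene lists and the filters were chosen with earlier results of these data known. UMIs were summed per class, scaled to CPM of the class, and compared as a log2 ratio with a floor of 3 UMIs on each side; a gene needed 20 UMIs on 1 side, and 2-fold was the call. Genes were named by rule: the 20 with the highest lesser ratio (at least 100 UMIs and 10% of members), the 10 with the lowest greater ratio, the 5 extremes of each contrast, members of 29 lists by role, and the 5 highest genes of cells led by each selecting gene. A few genes that the rule names are not reported here. Of 563 list genes, 551 were found in the table. Intervals are exact (Clopper-Pearson, 95%) and cover counting error only. With 1 library per group there is no test. Members led by 1 gene were those in which that gene had most UMIs of the 4. The ratio step was tested on simulated counts with known changes. Doublets were kept in the main values, and leaving them out was an alternative. Scrublet (scanpy 1.11.5) called 401 of 9827 barcodes (4.08%). It called 249 of the Myoc-set cells (6.51%), a higher share than the 4.11% of Ucma-set and 4.17% of Pi16-set cells. The scripts ran in Python 3.11.15 with scipy 1.17.1 for intervals, numpy 2.4.6 and pandas 2.3.3 for sums, and matplotlib 3.10.9 for plots.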

Additional observations from a re-analysis of the deposited data

Results flagged for a closer look

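Several genes had opposite 2-fold ratios over Pi16-set cells in library 1 and in another library, each with a counting interval on 1 side of 0. The libraries were not tested against each other, so these differences were not tested, and the Pi16-set class of the other libraries holds 53 to 228 cells. In log2, Zfhx4 was at -2.97 in library 1 and 1.31 in library 3, Fbln1, encoding fibulin 1, at -2.38 and 2.50, and Sfrp1 at -2.58 and 1.27. The growth factor gene Igf2 was at 2.80 in library 1 and -2.57 in library 3, and the binding protein gene Igfbp3 at -1.17 and 3.04. Igf2 was also at other levels in the selected cells themselves, with 38.5 CPM in library 1 and 560 in library 3. Against library 2, Thbs2 was at -1.27 and 1.41 and the eotaxin gene Ccl11 at -3.97 and 1.59. The cytokine gene Il6 was at -1.29 in library 1, 1.03 in library 2 and 4.45 in library 3. Igfbp2 was at 3.22 in library 1 and -2.82 in library 4. The Igfbp2 ratio of library 1 rests on 55 UMIs against 3.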

How the results depend on the processing

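No paired analysis was possible because each group had 1 library, the labels give no replicate numbers, and no result comes from a test. The share of Myoc-set cells among fibroblasts, 52.7%, was 51.2% with a set sum of at least 5, 47.9% with at least 10, 51.5% when the leading set had to reach 2 times the others, 54.7% with a gate of 30 per 10000, 49.6% after thinning to 2000 UMIs and classing again, and 70.3% without cells holding 3 or more UMIs of other cell types. Leaving out Thbs4-led cells, chosen after seeing the data like the removal of cells rich in perineurial genes, gave 50.3%. With a gene minimum of 100 UMIs, 870 genes were higher and 538 lower against Ucma-set cells and 681 higher and 736 lower against Pi16-set cells; fewer genes are tested then. The other alternatives left each of these 4 counts within 1.5 times. Ratios that changed sign without Thbs4-led cells were those of Itgb4 (-0.043) and Casq2 (-1.03) over Ucma-set cells, Casq2 over Pi16-set cells (-0.20) and the neuron list median over Ucma-set cells (-0.20). Without cells holding UMIs of other types, Top2a over Pi16-set cells went from -1.31 to 1.52 and the erythroid median over Ucma-set cells from -2.44 to 0.00698; the cause was not tested. Of 304 called ratios of genes in the text, 273 of 277 measured stayed past 2-fold after thinning and classing again. In each other alternative 288 or more of at least 292 measured did. Selecting genes, whose ratios the rule fixes, were not excluded from this count. Depth limits genes with few UMIs, and those under 20 UMIs in both classes of a contrast were not called. A called gene could hold fewer than 20 UMIs in 1 of the classes.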
